A study of Mus musculus with 8 samples.

Results

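The TREM family of cell surface receptors and the adaptors through which they signal comprised 8 genes here, Trem1, Trem2, Trem3, Treml1, Treml2, Treml4, Tyrobp and Hcst. They were chosen by name, through the RefSeq accession that the array lists for each probe, out of 37018 genes and transcripts measured. All 8 genes had a probe, 9 probes in all, and all 8 passed the filter on low intensity. Each gene is represented by its brightest probe, which mattered only for Treml2, the 1 gene with a pair of probes. RNA came from adherent peritoneal macrophages of C57BL/6 mice, either LysMCre-fur(fl/fl) animals (KO), in which Cre expressed from the lysozyme M locus of myeloid cells deletes the floxed Furin gene, or their wild-type littermates (WT). Cells of both genotypes were left unstimulated or received E. coli LPS (1 μg/ml) for 1, 4 or 24 h. Each 2-colour array carried the RNA of both genotypes from 1 time point, and there were 2 arrays per time point, replicates 1 and 2, with the dyes exchanged between them. The labels call these biological replicates but do not say how many mice gave the cells. P-values therefore measure the spread between these samples, and their number (n = 2 per group) limits the precision.

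TREM receptors carry an immunoglobulin-like domain. TREM1, TREM2 and TREM3, whose short tails have no signaling motif of their own, pair with TYROBP (also called DAP12), whose activation motif recruits the kinase SYK, and HCST (DAP10) is the related adaptor that recruits PI3-kinase. TREM1 is known for amplifying Toll-like receptor responses in neutrophils and monocytes, whereas TREM2 is a lipid-sensing receptor of tissue macrophages and microglia that is linked to phagocytosis, survival and restraint of inflammatory signaling. TREML1, which has an inhibition motif in its own tail, is best known from platelets, TREML2 from B cells and activated macrophages, and TREML4 from splenic macrophages and dendritic cells. TREM1 and TREM2 are also shed from the surface by ADAM metalloproteases, which are themselves made as precursors that FURIN can cleave.

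The TREM receptor genes lie in 1 cluster on mouse chromosome 17, and Tyrobp and Hcst are neighbours on chromosome 7. RefSeq promoter windows (GRCm38.p6) matched 5 of the 8 genes. The 250 bases before the start are shown for Trem1, which was higher in the RNA labelled KO after 4 h, and for Trem2, Treml1 and Hcst, which fell with LPS. They read 5′ to 3′ on the gene's strand, with capitals marking matches to any of 7 motifs searched on both strands. The windows are chr17:48232489-48232738 (plus strand) for Trem1, chr17:48346151-48346400 (plus strand) for Trem2, chr17:48359666-48359915 (plus strand) for Treml1 and chr7:30419855-30420104 (minus strand) for Hcst.
Trem1: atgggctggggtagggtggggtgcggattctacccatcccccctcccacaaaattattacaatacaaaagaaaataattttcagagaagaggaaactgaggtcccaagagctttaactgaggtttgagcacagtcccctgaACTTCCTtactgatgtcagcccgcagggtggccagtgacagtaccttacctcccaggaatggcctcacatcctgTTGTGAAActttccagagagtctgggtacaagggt
Trem2: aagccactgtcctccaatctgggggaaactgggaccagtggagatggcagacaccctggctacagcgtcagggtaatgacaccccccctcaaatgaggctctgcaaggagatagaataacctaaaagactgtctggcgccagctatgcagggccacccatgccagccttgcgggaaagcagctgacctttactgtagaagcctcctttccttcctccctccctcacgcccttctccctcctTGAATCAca
Treml1: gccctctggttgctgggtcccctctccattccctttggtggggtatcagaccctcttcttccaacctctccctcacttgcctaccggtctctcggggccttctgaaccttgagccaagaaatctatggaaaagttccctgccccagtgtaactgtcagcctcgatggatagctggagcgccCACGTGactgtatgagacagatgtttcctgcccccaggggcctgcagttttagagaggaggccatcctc
Hcst: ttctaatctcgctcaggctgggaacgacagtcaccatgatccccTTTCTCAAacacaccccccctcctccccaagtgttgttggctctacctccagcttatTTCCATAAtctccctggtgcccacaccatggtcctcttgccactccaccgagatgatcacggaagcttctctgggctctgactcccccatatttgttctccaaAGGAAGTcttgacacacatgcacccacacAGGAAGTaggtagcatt

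In the Trem1 window the capitals are a PU.1-type match (AGGAAGT, read here as ACTTCCT) and a C/EBP-type match (TTNNGNAA). The Trem2 window held 1 match, to the AP-1 motif TGANTCA, starting 9 bases before the start. The Treml1 window held 1 E-box (CACGTG), and that of Hcst held 2 PU.1-type and 2 C/EBP-type matches. Among all 32851 windows of this length, 7.69% held the PU.1-type motif, 36.8% the C/EBP-type motif, 6.75% the AP-1 motif and 6.02% the E-box. No match to the CRE TGACGTCA (1.55% of windows), the ISRE (2.98%) or the NF-kB motif (7.25%) was found in any of the 5 windows. The motifs searched do not overlap each other in the windows shown, and a match describes letters, not binding.

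Furin, the targeted gene, was lower in KO on both arrays of the unstimulated, 1 h and 24 h time points, by a mean log2 ratio (KO over WT) of -0.72, -0.56 and -0.64. After 4 h it was not: the log2 ratios were 0.00 and 0.33, a mean of 0.16. Lyz2, whose locus carries the Cre, was lower in KO on 8 of 8 arrays, from -1.85 to -0.75, also after 4 h (-1.04 and -1.13). Since Furin was not lower at 4 h while Lyz2 was, the 4 h samples are called the RNA labelled KO and labelled WT, also where values are listed by genotype. The macrophage markers Adgre1 and Csf1r were well above background in all 16 channels. Between 43.8% and 51.3% of the gene spots of a channel were well above background.

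**Figure D1:**
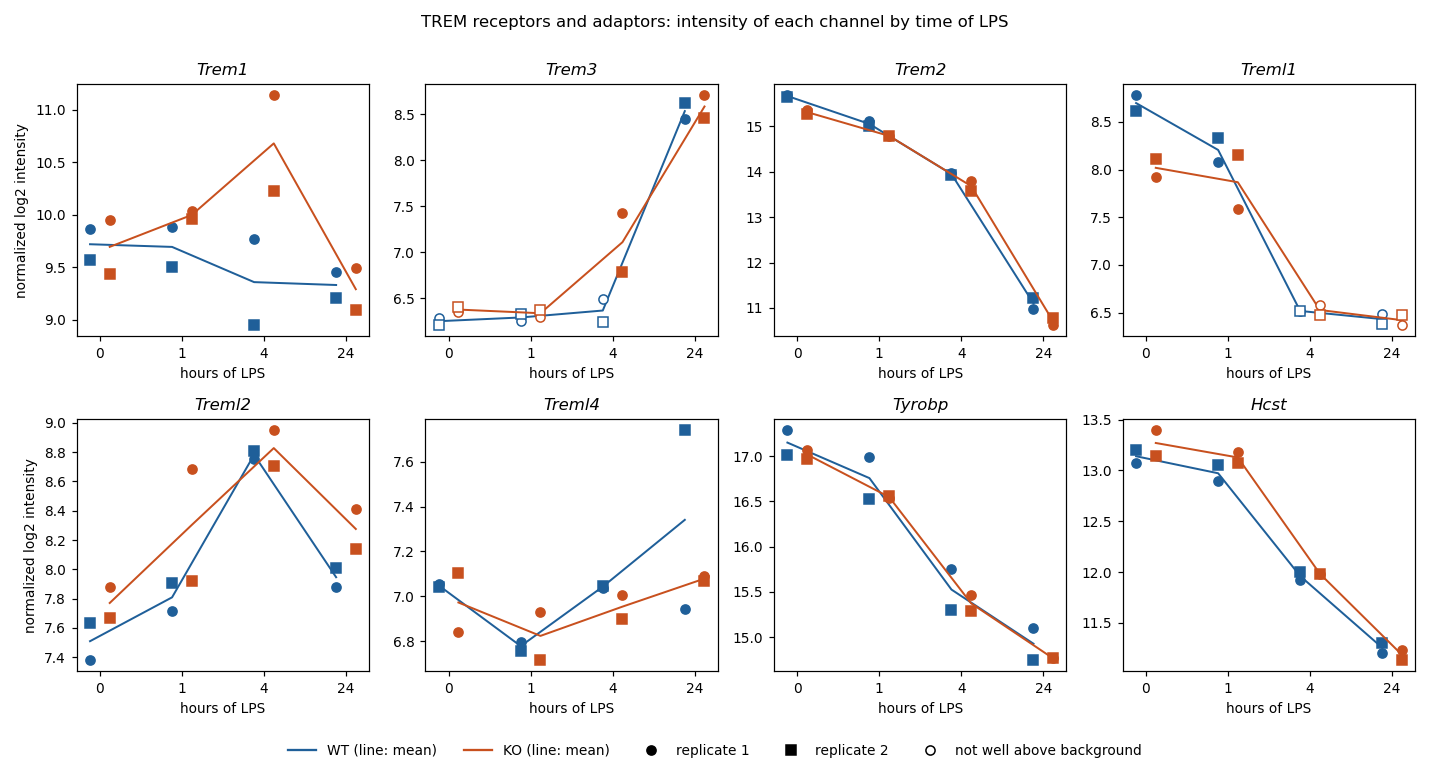
Normalized log2 intensity (vertical axis) of the 8 TREM and adaptor genes by hours of LPS (horizontal axis, evenly spaced), in WT (blue) and KO (orange). Circles are replicate 1, squares replicate 2, open symbols are not well above background and lines join the means; Trem2, Tyrobp and Hcst descend in both genotypes, and Trem1 peaks at 10.68 in the RNA labelled KO at 4 h.

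The arrays compare KO with WT to ask about FURIN in myeloid cells. At 4 h, where Furin itself was not lower in the RNA labelled KO, limma called 1 of the 8 genes higher in that RNA (Trem1). Over all 36947 genes and transcripts tested, 0.0108% were called higher and 0.00271% lower at that time. Averaged over the 4 time points, 1 of the 8 was called higher (Trem1, against 0.244% of all tested) and 1 lower (Trem2, against 0.322%). Without the 4 h arrays, an alternative chosen after the Furin ratio was seen, limma called 0 of the 8 for the mean of the other time points (0.0568% of all tested higher, 0.0433% lower), and 3 of 8 had an unadjusted p under 0.05, against 9.9% of all. Treml1 was 1 of these 3, though not well above background at 24 h. None of the 8 was called in unstimulated cells or after 1 h, where 0% of all tested was called, nor after 24 h, where 0.0135% were called higher and 0.0108% lower. At an unadjusted p under 0.05 the numbers of members were 2, 3 and 1 of 8 at those time points, against 5.78%, 5.48% and 3.43% of all tested. The methods' t-test gave 2, 1 and 0 of 8 at its own unadjusted threshold, against 4.58%, 4.75% and 4.1%. None was called for a change of the ratio from unstimulated to 1, 4 or 24 h, where 0% of all tested was called and 0, 3 and 1 of the members had an unadjusted p under 0.05, against 1.39%, 2.9% and 3.33% of all. Those were Trem1, Trem3 and Treml1 at 4 h and Treml1 at 24 h. Trem3 in unstimulated cells and Treml1 at 4 and 24 h were not well above background, so their changes of ratio are not measured ones. The replicate number pairs the samples (it is also the dye orientation), and in a fit with it as a block the members called were 2 of 8 higher after 4 h (0.33% of all tested) and, for the mean over time points, 3 of 8 higher (2.79%) and 2 of 8 lower (3.2%). Among these, Trem3 and Treml1 were not well above background on part of the arrays that enter the mean.

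The other comparison is that of LPS-treated with unstimulated cells of the same genotype. After 1 h, none was called higher in WT (3.38% of all 36927 tested) or in KO (3.09%), and 1 of the 8 was called lower in WT (5.12%) and in KO (4.35%). After 4 h, 1 was called higher (15.5% of all) and 4 lower (19.3%) in WT, and 3 higher (16.2%) and 4 lower (19.7%) in the RNA labelled KO. After 24 h, 1 was higher (13.5%) and 4 were lower (17%) in WT, and 1 was higher (12.7%) and 4 were lower (15.9%) in KO. The median log2 change of the 8 genes was -0.77 after 4 h and -1.14 after 24 h in WT, where the medians over all genes tested were 0.00 and -0.02. In the RNA labelled KO the median of the 8 was -0.65 after 4 h, against 0.00 over all genes tested. These 3 medians were the same with the genes that have only a bound set to it. In KO after 24 h the median of the 8 was -1, or -0.9895 with the bounds, against -0.02 over all genes tested. From 1 h to the 4 h RNA of the same label, 1 member rose in WT (13.9% of all) and in KO (14.9%), and 4 fell in WT (15.7%) and in KO (16.9%). From the 4 h RNA of the same label to 24 h, 1 rose in WT (15.1%) and in KO (15.6%), and 4 fell in WT (14.6%) and in KO (15.1%). Against unstimulated cells, the same 4 genes, Trem2, Treml1, Tyrobp and Hcst, were called lower at 4 and 24 h under both labels. From 4 to 24 h the 4 that fell were Trem2, Tyrobp and Hcst, with Treml2 in WT and with Trem1 in KO.

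Trem1, the amplifying receptor, was higher in the RNA labelled KO than in that labelled WT at 4 h. In WT its log2 intensity was 9.87 and 9.57 in unstimulated cells (replicates 1 and 2), 9.89 and 9.50 after 1 h, 9.77 and 8.95 after 4 h, and 9.46 and 9.21 after 24 h. In KO it was 9.95 and 9.44 in unstimulated cells, 10.04 and 9.96 after 1 h, 11.14 and 10.22 after 4 h, and 9.49 and 9.09 after 24 h. Both 4 h samples labelled KO lay above every other sample, while the WT and KO values overlapped in unstimulated cells and after 24 h.

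Within the 4 h arrays the log2 ratio of the RNA labelled KO over WT was 1.37 and 1.27 for Trem1, a mean of 1.32 (SE 0.109) or 2.5-fold (limma adjusted p = 0.0135). It was -0.03 in unstimulated cells, 0.30 after 1 h and -0.04 after 24 h, none of them called. The mean over the 4 time points was 0.39 (SE 0.0547, adjusted p = 0.028), and 0.080 (SE 0.0657, adjusted p = 0.827) without the 4 h arrays. In whole cultures, more cells of a type and more RNA per cell cannot be told apart. The size of the 4 h ratio stayed between 1.27 and 1.41 under the alternatives run, but the call was lost with a normexp offset of 10 (adjusted p = 0.0876), with the scanner software's processed signals (0.168), in the separate-channel fit (0.199), without replicate 1 (0.43) and without replicate 2 (0.199) of the 4 h arrays, and in the methods' t-test (1). The call for the mean over time points was lost on leaving out any 1 of the 8 arrays (adjusted p from 0.051 to 0.128), as it was with that offset and with the processed signals.

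With LPS, Trem1 rose in the RNA labelled KO by 1.18 and 0.79 on the log2 scale at 4 h over unstimulated cells, a mean of 0.99 (SE 0.288) or 1.98-fold (limma adjusted p = 0.0146), and fell by 1.39 from 4 to 24 h (adjusted p = 0.00179). Its step of 0.68 from KO at 1 h to the RNA labelled KO at 4 h was called with the replicate block (adjusted p = 0.00389) and not without it (0.0946), and was 0.22 (0.593) without replicate 1 and 1.14 (0.00319) without replicate 2 of the 4 h arrays. In the RNA labelled WT the 4 h differences were -0.10 and -0.62, a mean of -0.36 (adjusted p = 0.409). Over the alternatives run that mean went from -0.81 to 0.045, and it was called lower in some of them. The difference between the LPS effects under the KO and WT labels was 1.35 (SE 0.155), which was not called (adjusted p = 0.185) except with the replicate block (0.0166). The 4 h rise in the RNA labelled KO was not called without replicate 2 of the unstimulated arrays (0.73, adjusted p = 0.163), without replicate 1 of the 4 h arrays (0.53, 0.125) or with loess normalization alone (0.58, 0.103).

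Trem3, a TYROBP-coupled receptor of the same cluster, was a late LPS gene. Its probe was not well above background in unstimulated cells or after 1 h in either genotype, where the log2 intensity lay between 6.21 and 6.40. After 4 h it was 6.49 and 6.24 in the RNA labelled WT, still not well above background on either array, and 7.43 and 6.79 in that labelled KO, above background on both. After 24 h it was 8.45 and 8.62 in WT and 8.70 and 8.46 in KO, so the genotypes overlapped.

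Because part of these groups has only an upper limit, their differences are given as bounds, the bright group's mean against the higher of the dim group's own signal and the lowest signal well above background, after loess and Aquantile normalization. After 24 h Trem3 had risen at least 4.38-fold over unstimulated cells in WT (limma adjusted p = 1.4e-07) and at least 4.38-fold in KO (2.08e-07). The fitted log2 changes behind these p-values, 2.29 and 2.21, were 5.67 and 4.95 with the scanner software's processed signals, so the fitted size depends on which signals are used. In the RNA labelled KO it was already at least 1.52-fold higher at 4 h than in unstimulated cells (adjusted p = 0.00271). That bound was 1.87-fold with replicate 1 of the 4 h arrays alone and 1.23-fold with replicate 2 alone, and the fit called the rise with either of them left out (adjusted p = 0.0353 without replicate 1, 7.83e-05 without replicate 2). In WT the probe was not well above background at either time, so no fold is given. Set against each other at 4 h, the RNA labelled KO was at least 1.45-fold higher than that labelled WT (1.79-fold and 1.17-fold with replicates 1 and 2 alone). That difference was not called (adjusted p = 0.26), except in the fit with the replicate block (0.0161).

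Trem2, the lipid receptor of resident macrophages, was lower after LPS at every time point and lower in KO on every array. In WT its log2 intensity was 15.68 and 15.65 in unstimulated cells, 15.11 and 15.00 after 1 h, 13.97 and 13.93 after 4 h, and 10.99 and 11.21 after 24 h. In KO it was 15.36 and 15.27 in unstimulated cells, 14.79 and 14.79 after 1 h, 13.79 and 13.58 after 4 h, and 10.63 and 10.78 after 24 h. None of these 8 conditions overlapped another, and at each time point both WT samples lay above both KO samples.

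In WT, Trem2 had fallen 1.53-fold after 1 h (limma adjusted p = 0.0018), 3.29-fold after 4 h (1.82e-08) and 23.7-fold after 24 h (5.61e-12). In KO the falls were 1.44-fold after 1 h (adjusted p = 0.00684) and 24.4-fold after 24 h (8.16e-12), and in the RNA labelled KO 3.09-fold after 4 h (3.08e-08). The 1 h fall in KO was the less stable one: it was not called with loess alone (adjusted p = 0.0771), without replicate 1 of the unstimulated arrays (0.0974), or without replicate 1 (0.0613) or replicate 2 (0.0633) of the 1 h arrays.

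The log2 ratio of Trem2 in KO over WT lay between -0.43 and -0.18 on the 8 arrays, as labelled, a direction shared on all 8 by 1.51% of the genes and transcripts compared. On the 6 arrays other than those of 4 h, 3.3% were lower in KO on all. Its means were -0.35 in unstimulated cells, -0.26 after 1 h, -0.26 after 4 h and -0.40 after 24 h, none called at a single time point (adjusted p from 0.391 to 0.996). The mean over the time points was -0.32 (SE 0.0457), or 1.25-fold lower in KO (limma adjusted p = 0.0303). Without the 4 h arrays it was -0.34 (SE 0.0519) and not called (adjusted p = 0.0813). For the mean over all 4 time points limma also called 2 of 9 large peritoneal macrophage markers higher in KO (Cd5l by 0.76 and Icam2 by 0.34), 2 of 7 markers of small peritoneal macrophages and monocytes lower (Itgax, -0.38, and Retnla, -0.41) and 1 of 7 general macrophage markers lower (Csf1r), against 0.244% higher and 0.322% lower of all tested. Of these 5, Cd5l was still called without the 4 h arrays (adjusted p = 0.0398). Some uncalled markers of these lists went the other way. In unstimulated cells, log2 means in WT and KO were 13 and 12.5 for Timd4 (large) and 8.32 and 8.7 for Cx3cr1 (small). The list medians for the mean over time points were 0.12 (large), 0.07 (small) and 0.00 (general). The part of these markers in the Trem2 difference was not tested. The Trem2 mean stayed between -0.34 and -0.30 under the alternatives, but leaving out any 1 array raised the adjusted p to between 0.0629 and 0.126, and it was 0.0608 with a normexp offset of 10 and 0.201 with the processed signals. The ratio did not change detectably with LPS, with differences from unstimulated cells of 0.09, 0.09 and -0.04 (SE 0.129).

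**Figure D2:**
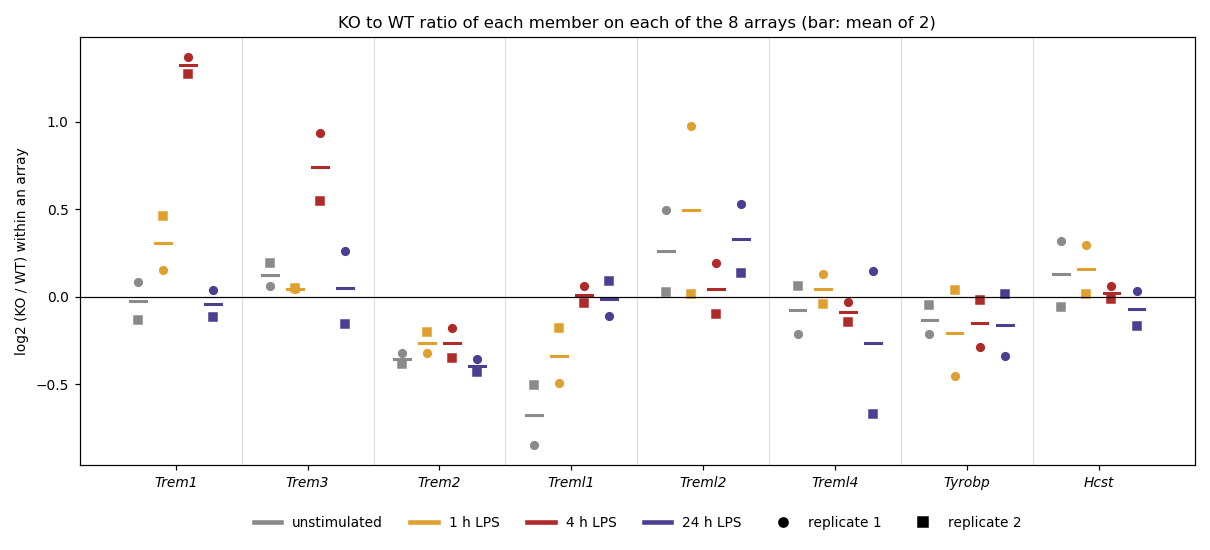
Log2 ratio of KO over WT within each of the 8 arrays (vertical axis) for each gene (horizontal axis), coloured by time point, with circles for replicate 1, squares for replicate 2 and a bar for their mean. Trem1 stands at 1.37 and 1.27 after 4 h, and all 8 points of Trem2 lie below 0. Trem3 before 24 h (at 4 h in the RNA labelled WT) and Treml1 from 4 h on were not well above background, so their points there are not measured ratios.

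Treml1, the platelet-type receptor of the cluster, fell to background with LPS. Its log2 intensity in WT was 8.78 and 8.62 in unstimulated cells and 8.08 and 8.33 after 1 h. In KO it was 7.93 and 8.11 in unstimulated cells and 7.59 and 8.15 after 1 h. After 4 and 24 h all 8 values, from 6.37 to 6.58, were not well above background.

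By 4 h Treml1 had fallen at least 4.52-fold in the RNA labelled WT (limma adjusted p = 5.98e-08) and at least 2.76-fold in that labelled KO (2.51e-06), and by 24 h at least 4.74-fold in WT (6.9e-08) and at least 2.98-fold in KO (2.12e-06). With the processed signals the fitted log2 changes at 24 h were -4.98 in WT and -3.97 in KO in place of -2.27 and -1.60. In unstimulated cells both KO samples lay below both WT samples, with log2 ratios of -0.85 and -0.51. Their mean, -0.68 (SE 0.121), or 1.6-fold lower in KO, was not called (adjusted p = 0.183) except with the replicate block (0.0118). No mean over time points is given, since the 4 and 24 h arrays were at background in both channels. After 1 h the WT value was 0.49 lower on the log2 scale than in unstimulated cells, which was not called (adjusted p = 0.0693) except with the block (0.0296), with loess alone (0.046) and without replicate 2 of the 1 h arrays (0.0178). In KO the 1 h difference was -0.15, from -0.34 and 0.04 in the replicates (adjusted p = 0.727, 0.599 with the block).

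Treml2, a receptor of B cells and activated macrophages, was highest at 4 h by its brighter probe. In WT its log2 intensity was 7.38 and 7.64 in unstimulated cells, 7.71 and 7.90 after 1 h, 8.76 and 8.81 after 4 h, and 7.88 and 8.01 after 24 h. In KO it was 7.88 and 7.66 in unstimulated cells, 8.69 and 7.92 after 1 h, 8.95 and 8.71 after 4 h, and 8.41 and 8.14 after 24 h. The 4 h samples of both genotypes lay above all others of this probe. The dimmer probe was highest in replicate 1 of KO at 24 h (7.09), against 6.63 and 7.04 in the RNA labelled KO at 4 h.

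Treml2 rose 2.42-fold at 4 h in the RNA labelled WT (limma adjusted p = 0.000187) and 2.08-fold in that labelled KO (0.000882), and WT at 24 h was 1.79-fold below the former (0.00635). With loess alone the rise in the RNA labelled KO was 0.61 on the log2 scale and not called (adjusted p = 0.0725), and the later fall was -0.39 (0.319). That fall was also not called with the mean of both probes (-0.45, 0.0718) or without replicate 1 of the 24 h arrays (-0.77, 0.0548). After 24 h it stood 0.44 above unstimulated cells in WT and 0.51 in KO on the log2 scale, called with the replicate block (adjusted p = 0.0169 and 0.00735) and not without it (0.143 and 0.0899). The same held in KO for the 1 h difference of 0.53 (0.0165 with the block, 0.17 without), for the step of 0.53 from 1 h to the RNA labelled KO at 4 h (0.00526, 0.0716) and for that of -0.55 from there to 24 h (0.00379, 0.0594). Replicate 1 of 1 h decides the first of these, which was 0.15 without it (adjusted p = 0.855) and 0.92 without replicate 2 (0.0113), while the step to 4 h was 0.91 (0.00193) and 0.14 (0.658). Its second, dimmer probe, well above background in 9 of 16 channels, gave 0.36 and 0.28 for the 4 h rise, neither called (adjusted p = 0.144 and 0.27). From 1 h to 4 h the same probe rose by 0.50 under the WT label (adjusted p = 0.0489) and differed by 0.17 under the KO label (0.55). From 4 to 24 h it differed by -0.06 in WT (0.883) and 0.14 in KO (0.656).

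In KO over WT, Treml2 was higher on 7 of 8 arrays, but replicate 1 gave 0.49, 0.98, 0.19 and 0.53 over the time points where replicate 2 gave 0.03, 0.01, -0.10 and 0.13. The mean of 0.28 was not called (limma adjusted p = 0.38) except with the block (0.0149). Replicate and dye orientation cannot be told apart in this difference between the arrays.

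Treml4, the receptor known from splenic macrophages, was well above background in all 16 channels and was called in no comparison. Its log2 intensity was 7.74 in replicate 2 of WT after 24 h, beside 6.94 in replicate 1, and between 6.72 and 7.10 in all other samples. Without that replicate 1, the 24 h difference in WT was 0.69 (limma adjusted p = 0.00325), and without replicate 2 it was -0.11 (0.715), so 1 sample decides its direction.

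Tyrobp, the adaptor of the activating TREM receptors, fell in both genotypes. In WT its log2 intensity was 17.29 and 17.02 in unstimulated cells, 16.99 and 16.53 after 1 h, 15.75 and 15.30 after 4 h, and 15.10 and 14.75 after 24 h. In KO it was 17.07 and 16.97 in unstimulated cells, 16.54 and 16.56 after 1 h, 15.46 and 15.28 after 4 h, and 14.76 in both replicates after 24 h. The fall was 3.08-fold at 4 h and 4.67-fold at 24 h under the WT label (limma adjusted p = 4.06e-06 and 3.09e-07).

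Tyrobp fell 3.13-fold in the RNA labelled KO at 4 h and 4.78-fold in KO at 24 h (limma adjusted p = 3.67e-06 and 2.9e-07). After 1 h the log2 differences, -0.39 in WT and -0.47 in KO, were called with the replicate block (adjusted p = 0.0136 and 0.00486) and not without it (0.248 and 0.15). KO and WT overlapped at each time point, with a mean log2 ratio over time points of -0.16 (adjusted p = 0.465). Replicate 1 gave ratios from -0.45 to -0.21 and replicate 2 from -0.05 to 0.04.

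Hcst, the PI3-kinase adaptor, fell in both genotypes as well. In WT its log2 intensity was 13.08 and 13.20 in unstimulated cells, 12.89 and 13.05 after 1 h, 11.93 and 11.996 after 4 h, and 11.21 and 11.31 after 24 h. In KO it was 13.39 and 13.15 in unstimulated cells, 13.19 and 13.07 after 1 h, 11.98 and 11.98 after 4 h, and 11.24 and 11.14 after 24 h. The 4 h samples were below every unstimulated and 1 h sample, and the 24 h samples were below those of 4 h.

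Hcst fell 2.26-fold at 4 h and 3.69-fold at 24 h under the WT label (limma adjusted p = 1.01e-06 and 1.77e-08), and 2.44-fold in the RNA labelled KO at 4 h and 4.24-fold in KO at 24 h (4.34e-07 and 7.56e-09). Its 1 h differences of -0.17 and -0.14 were not called (adjusted p = 0.513 and 0.607). The log2 ratio of KO over WT ranged from -0.17 to 0.32 over the 8 arrays, with no call at any time point.

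The members' courses over the 16 channels are given as Pearson's r across channels that share arrays and time points and so are no independent samples. Trem2, Treml1, Tyrobp and Hcst had r between 0.817 and 0.959 with each other. Trem3, well above background in 6 of the 16 channels, had r from -0.957 to -0.698 with them, and Trem1 was loosely related to each of the others (r from -0.354 to 0.346). Among 12754 named genes, those most like Trem2 were Ldhb (r = 0.994), Ephx1, Tmem176a, Vsig4 and Cfhr2, and those most like Tyrobp were Prxl2b (r = 0.991), Camk1, Cd93, Myo9b and Slc22a17. Those most like Trem1 were Lifr (r = 0.838), Ramp3, Rhox1, Gpalpp1 and Asb4.

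A list of 75 further genes of the pathway was followed beside the members, and 72 of them were measured. After 4 h of LPS, 14 of the 72 were called higher and 31 lower in WT, and 13 higher and 32 lower in the RNA labelled KO. Over all genes tested, 15.5% were higher and 19.3% lower in WT, and 16.2% and 19.7% in the RNA labelled KO. After 24 h, 8 were higher and 32 lower in WT (13.5% and 17% of all), and 9 higher and 36 lower in KO (12.7% and 15.9%). The median log2 change of the 72 was -0.23 at 4 h and -0.40 at 24 h in WT, against 0.00 and -0.02 over all genes tested.

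Of 15 other receptors that use TYROBP, 2 rose and 5 fell in the RNA labelled WT at 4 h, and 2 rose and 5 fell in that labelled KO, with 4 of the falls shared. Here and for the other lists, a pair of 4 h values gives the RNA labelled WT first and that labelled KO second. The 4 h counts of each list stand against 15.5% and 16.2% of all tested called higher, and 19.3% and 19.7% called lower. Cd300lb, an activating receptor of myeloid cells, fell 20.5-fold and 22.9-fold (limma adjusted p = 3.67e-12 and 2.91e-12), from log2 intensities of 11.52 and 11.43 to 7.20 and 7.04 under the WT label. Its relative Cd300ld fell 7.42-fold and 8.2-fold (2.48e-09 and 1.69e-09). Treml6 (B430306N03Rik), a further TREM-like gene, fell 1.49-fold and 1.86-fold at 4 h (0.00981 and 0.000355).

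Of 10 ligands and co-receptors, 2 rose and 3 fell at 4 h under both labels. Sema6d, the semaphorin whose receptor complex includes TREM2 and TYROBP, rose 5.42-fold in the RNA labelled WT (limma adjusted p = 0.000208) and 6.82-fold in that labelled KO (6.59e-05). Csf1, the macrophage growth factor, rose 4.85-fold and 5.04-fold (4.54e-06 and 3.69e-06), and by 24 h had fallen below unstimulated cells, 1.92-fold in WT and 2.76-fold in KO (0.00958 and 0.000381). Its receptor Csf1r, which signals in part through TYROBP, fell 2.45-fold and 3.02-fold at 4 h (5.72e-06 and 7.55e-07).

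Of 27 downstream kinases and adaptors, 8 rose and 12 fell in the RNA labelled WT at 4 h, and 7 rose and 12 fell in that labelled KO. Malt1, the protease of the CARD9 and BCL10 complex, rose 9.2-fold and 8.79-fold (limma adjusted p = 1.62e-08 and 1.99e-08). Of 13 inhibitors, 2 rose and 7 fell in the RNA labelled WT at 4 h, and 2 rose and 8 fell in that labelled KO. Inpp5d, the lipid phosphatase SHIP1 that opposes PI3-kinase, fell 11.1-fold and 10.5-fold at 4 h (5.05e-11 and 6.63e-11) and was 1.6-fold and 1.79-fold below unstimulated cells at 24 h (0.000329 and 5.18e-05).

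Of the 6 measured genes of shedding and intramembrane cleavage, none rose and 4 fell at 4 h under both labels, and 5 were lower at 24 h in both genotypes. Adam10, a sheddase of TREM2, fell 2.25-fold in the RNA labelled WT and 2.72-fold in that labelled KO at 4 h (limma adjusted p = 1.17e-06 and 1.51e-07). Psen2 fell 3.87-fold and 3.7-fold, and Aph1a 2.35-fold and 2-fold. Adam17 differed by -0.11 and -0.13 on the log2 scale at 4 h, not called (0.607 and 0.527). These are RNA values, and neither receptor shedding nor surface protein was measured.

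Between the genotypes, 2 of the 72 pathway genes were called for the mean over time points, 1 lower (0.322% of all tested) and 1 higher (0.244%) in KO. Without the 4 h arrays neither was called (-0.36 with adjusted p = 0.0748 for Csf1r, 0.38 with 0.0828 for Lyn). Csf1r was lower by a log2 ratio of -0.40 (limma adjusted p = 0.0182), from log2 intensities of 17.64 and 17.54 in WT to 17.39 and 17.33 in KO in unstimulated cells. Lyn, a SRC-family kinase that phosphorylates activation and inhibition motifs, was higher by 0.35 (0.0298), from 9.74 and 9.70 to 10.22 and 10.15.

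**Figure D3:**
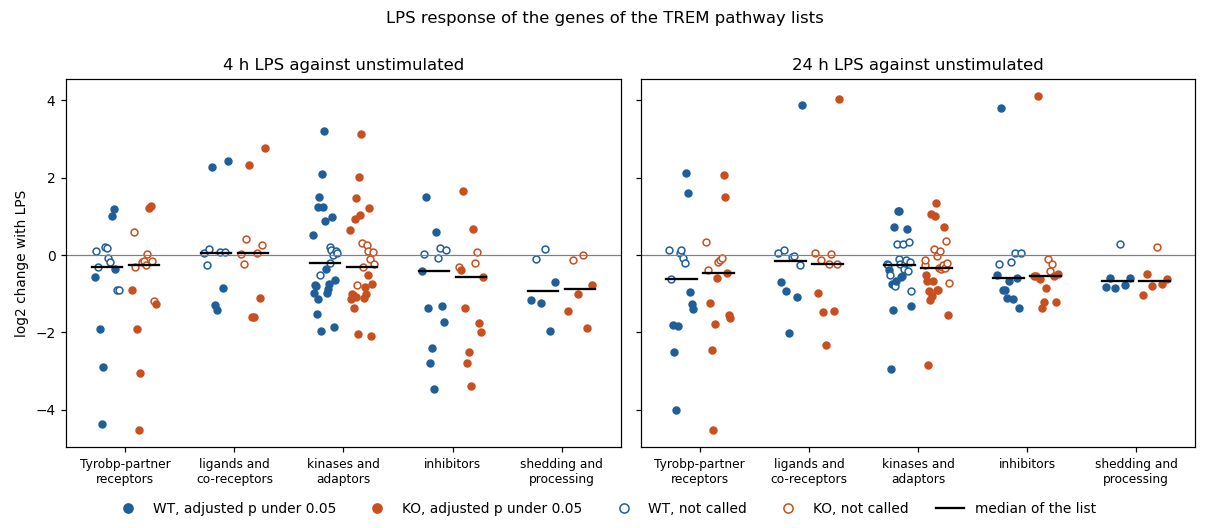
Log2 change (vertical axis) with 4 h (left) and 24 h (right) of LPS for each measured gene of 5 pathway lists (horizontal axis), in WT (blue) and KO (orange), filled where called by limma, with a black bar for the list's median. Cd300lb is the lowest point of the TYROBP-partner list at both times, and no gene of the shedding list is called higher.

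Marker genes of other cell types were read beside the members that those cells are known to express. Of 11 measured neutrophil markers, 5 were well above background on both arrays in every group, and S100a9, Ngp, Retnlg, Cxcr2 and Mpo were not in any channel. Their summed linear intensity was 5986 to 6529 in the RNA labelled WT and 5749 to 5778 in that labelled KO at 4 h, where Trem1 was higher. At 24 h, where Trem3 had risen, it was 27670 to 64650 in WT and 42080 to 70100 in KO, against 5749 to 10310 over the earlier groups, and S100a8, which macrophages can also express, had gone from a log2 mean of 11.36 to 15.13 in WT. At that time 3 of the 11 (S100a8, Camp and Mmp9) were called higher and 2 (Mmp8 and Elane) lower in each genotype, against 13.5% and 17% of all tested in WT and 12.7% and 15.9% in KO. In WT Mmp8 went from 12.14 to 10.48 and Elane from 10.57 to 9.69.

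Of 10 platelet markers, 3 to 5 were well above background in a group, and the defining marker Gp9 was not in any channel, while Treml1 was measured above background up to 1 h. The platelet sum was 127100 to 133800 in unstimulated WT and 102400 to 129400 at 4 h, where Treml1 was no longer above background. That sum follows the single gene Pf4, with log2 means of 16.98 and 16.8 in these groups. The next brightest marker, Ppbp, had 8.56 and 8.24, so the sum is no measure of the list as a whole. All 7 B cell markers were well above background throughout, with a sum of 78740 to 106200 in unstimulated WT and 40800 to 49350 at 4 h, where Treml2 was highest. After 1 h that sum was 74650 to 103200 in WT and 119200 to 125900 in KO, without overlap, where the log2 ratio of Treml2 was 0.98 in replicate 1 and 0.01 in replicate 2. The sum of 9 large peritoneal macrophage markers was 186400 to 201300 in unstimulated WT and 21800 to 24120 at 24 h, where Trem2 was lowest, and that of 7 general macrophage markers was 325500 to 355700 and 184700 to 220100. At 4 h the latter was 239400 to 287100 in the RNA labelled WT and 291100 to 338000 in that labelled KO. Its brightest genes then were Cd14, with log2 means of 17.03 (labelled WT) and 17.64 (labelled KO), Csf1r (16.3 and 15.77) and Adgre1 (15.1 and 15.11). Of these, only Cd14 was clearly higher under the KO label. After 24 h the general macrophage sum in KO was 145700 to 162500, below WT without overlap. The sum of 8 mast cell markers was 33880 to 47420 in the RNA labelled WT and 57400 to 58640 in that labelled KO at 4 h. Its brightest gene then was Hdc, with log2 means of 14.79 (labelled WT) and 15.31 (labelled KO), against 9.68 in unstimulated WT. The next, Cpa3, had 11.95 and 12.42, against 11.79 in unstimulated WT. The mast cell sum was also higher in KO without overlap after 1 h (12510 to 12960 in WT, 13720 to 18200 in KO) and after 24 h (12800 to 13670 and 16420 to 18100). The part of these cells in the members' values was not tested.

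**Figure D4:**
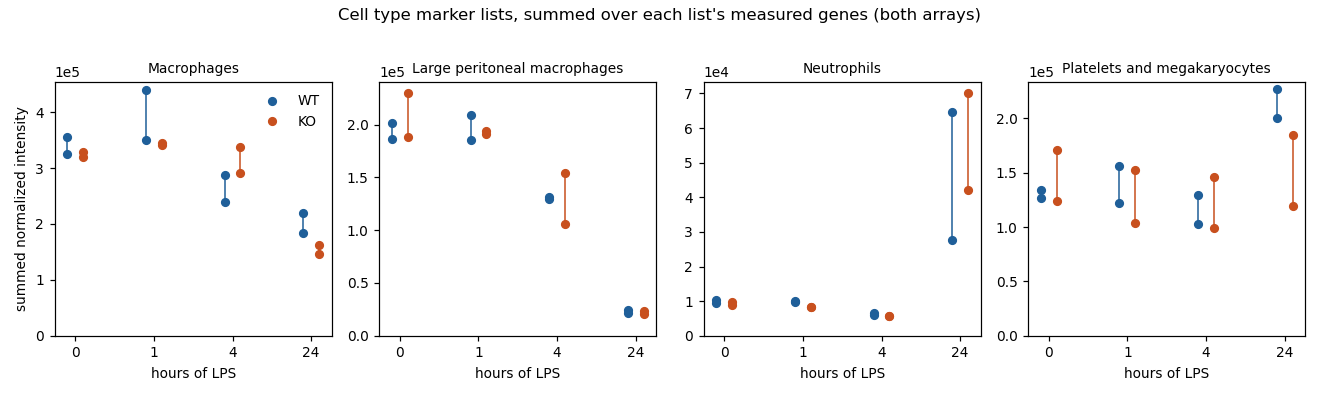
Summed normalized linear intensity (vertical axis, from 0) of 4 cell type marker lists by hours of LPS (horizontal axis), in WT (blue) and KO (orange), with 1 point per array and a line between the replicates. The large peritoneal macrophage sum is lowest and the neutrophil sum highest at 24 h.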

How the data were processed

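The 8 arrays are Agilent 2-colour mouse arrays scanned by the authors with Feature Extraction 10.7.3. The deposited scanner files hold spot intensities as pixel medians of both channels with their local background, and the deposited value table holds log2 ratios of Cy5 over Cy3, which matched loess-normalized ratios (r = 1 on each array). The design had named mean intensities, and medians were used since the files hold these. Intensities were background-corrected (normexp, offset 50), loess-normalized within and quantile-normalized between arrays in limma 3.58.1 (R 4.3.3). Outlier spots were left out, replicate spots were averaged per probe, and a gene was represented by its brightest probe. The filter kept genes whose log2 intensity averaged 6 or more.

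Log2 ratios of KO over WT were fitted per time point (36947 genes and transcripts, 4 residual degrees of freedom). LPS effects came from a separate-channel fit of all 16 channels (36927 genes and transcripts, within-spot correlation 0.116, statmod 1.5.0). Calls have a Benjamini-Hochberg adjusted p under 0.05 over all tested, two-sided.

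The labels give both replicate numbers at each time, and the dyes follow them. The difference between replicates correlated across genes between time points (r from 0.475 to 0.679 over the 6 pairs of times), so the number was treated as pairing the samples in an alternative fit. Other alternatives changed the background correction, normalization, starting values, filter, probe rule and test, or left out 1 array. Leaving out the 4 h arrays was added after the data were seen. All arrays lay on 1 slide with 1 scan time.

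Pathway genes were named where they had the 3 largest rises or falls at 4 h in WT, called alike in both genotypes, or were called between genotypes. Treml6, the shedding genes and the LPS values of Csf1r were named after their values were seen. Likeness was ranked by Pearson's r among genes well above background in at least 8 channels. The members, lists and rules were chosen with earlier results of these data known. Times were taken from the sample titles, since the growth protocol names 4 h alone.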

Additional observations from a re-analysis of the deposited data

Results flagged for a closer look

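The effect of 4 h of LPS on Trem1 pointed in opposite directions in the samples of the 2 genotypes: the log2 differences from unstimulated cells were -0.10 and -0.62 in the RNA labelled WT and 1.18 and 0.79 in that labelled KO. The difference between the effects was 1.35 (limma adjusted p = 0.185, 0.0166 with the replicate block). On the same 4 h arrays Furin, at log2 ratios of 0.00 and 0.33, was not lower in the RNA labelled KO, while Lyz2 was (-1.04 and -1.13). The part of the Furin ratio in the Trem1 value was not tested.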

How the results depend on the processing

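Of 144 member values, 47 were called, and the 77 never called under any setting turned sign in 62 of 1486 recomputed values. The 2 samples per group set the limit throughout, and probes at background give only bounds. Counts of members called, for KO over WT at 4 h (higher), were 1, but 0 with a normexp offset of 10, with processed signals, in the separate-channel fit and in the methods' t-test, and 0 to 1 on leaving out an array. For the mean over time points they were 1 higher and 1 lower, but 0 and 0 with an offset of 10, with processed signals, on leaving out any array and without the 4 h arrays. With the replicate block the counts, each with the share of all tested, became 2 (4 h, higher, 0.33%), 3 (mean, higher, 2.79%), 2 (mean, lower, 3.2%), 1 (change at 4 h, higher, 0.0217%), 1 (unstimulated, lower, 0.582%), 1 and 2 (KO 1 h, higher, 4.68%, and lower, 6.8%), 3 (WT 1 h, lower, 7.23%), 2 (24 h, higher, WT 15.2% and KO 14.6%), 3 (KO 4 against 1 h, higher, 17.3%) and 5 in place of 4 (KO 24 against 4 h, lower, 17.8%), and it changed no other call.

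For LPS, loess alone gave 1 of 3 rises (KO 4 h), 0 of 1 rise (WT 4 against 1 h), 0 of 1 fall (KO 1 h), 2 falls in place of 1 (WT 1 h), 1 of 4 falls (WT 24 against 4 h) and 3 of 4 falls (KO 24 against 4 h, without Tyrobp), and it moved the median of all genes by -0.16 between 1 and 4 h. Over all 144 values, loess alone gained 2 calls and lost 8. An offset of 10 gave 2 rises in place of 1 (KO 24 h, and KO 4 against 1 h), as did the detection filter for the latter. With processed signals the fall of Tyrobp for WT 24 against 4 h was -0.54 and not called (limma adjusted p = 0.0514). The methods' t-test, after adjustment, gave 2 of 4 falls for WT 4 h and for KO 24 h, and 0 in every other LPS count. Leaving out 1 array gave 0 to 1 rises and 0 to 1 falls (KO 1 h), 1 to 2 falls (WT 1 h), and 1 to 2 rises (WT and KO 24 h, WT 24 against 4 h, KO 4 against 1 h). It also gave 2 to 3 rises (KO 4 h, losing Trem1), 3 to 4 falls (WT 24 against 4 h, losing Tyrobp or Treml2), 3 to 5 falls (KO 24 against 4 h, losing Tyrobp), and 4 to 5 falls (WT 4 h, and WT 4 against 1 h). On leaving out an array, Trem1 in the RNA labelled WT at 4 h ran from -0.77 to 0.045 against unstimulated cells and from -0.74 to 0.071 against 1 h. Both were lowest without replicate 1 of 4 h and above 0 without replicate 2 of 4 h. Over all alternatives the former reached -0.81. Treml4 in WT at 24 h ran from -0.11 to 0.69 against unstimulated cells and from -0.10 to 0.70 against 4 h, below 0 without replicate 2 of 24 h. The cause of these shifts was not tested.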
